A study of Mus musculus with 9 samples.

Results

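The 8 genes of the LIM homeobox and LIM-only system, among 24102 rows of the deposited expression table, were followed in Shox2-lineage cells of the embryonic mouse limb. They were taken by symbol, and each of the 8 matched 1 row. They are the LIM homeobox genes Lhx2, Lhx9 and Lmx1b, the LIM-only genes Lmo1, Lmo2 and Lmo4, and the LIM-domain-binding cofactor genes Ldb1 and Ldb2. The set was selected on its mutant and control FPKM values in these columns, which were already known, so the difference between genotypes is described for these genes and not tested.

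Cells were green cells sorted from digested limbs at stage E12.5. Mutant cells carried Shox2(Cre/-) with Rosa(mTmG), and control cells carried Shox2(Cre/+) with Rosa(mTmG). In both groups Cre made from the Shox2 locus switched on the membrane green reporter, so both groups had lost 1 normal allele to Cre and the sort took only cells with past or present Shox2 activity. RNA sequencing values were taken as FPKM, sequenced fragments scaled to transcript length and to library size. The headers name geometric normalization by Cuffdiff for that scaling, stated once over each litter's columns. Values of 3 mutant and 3 control columns were used, 1 per genotype in each of 3 litters. The labels name 2 mutant samples in litter 1, and the sources used here do not say which of them the single column holds. The number of embryos behind a column is not given either, so errors and p-values measure only the spread between these columns.

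LIM domains are zinc-binding modules that hold proteins together. LIM homeobox factors join a pair of LIM domains to a homeodomain that binds DNA. LIM-only proteins have the LIM domains without the homeodomain, and LDB proteins dimerise and bridge LIM proteins into larger complexes, so LIM-only and LIM homeobox proteins can compete for the same LDB partner. In the limb bud, Lmx1b gives mesenchyme its dorsal identity downstream of Wnt7a from the dorsal ectoderm, and Lhx2 and Lhx9 act beneath the apical ridge in outgrowth.

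Shox2 itself was at 16.7, 18.3 and 96.9 FPKM in the mutants of litters 1, 2 and 3, against 217, 222 and 210 FPKM in the controls. The litter 3 mutant thus kept 0.462 of its control's Shox2 level, where the other mutants kept 0.0768 and 0.0825. Mesenchymal identity was seen in all columns, with Prrx1, a homeobox gene of limb mesenchyme, at 121 to 246 FPKM in the mutants and 106 to 184 FPKM in the controls. The forelimb gene Tbx5 (46.0 to 64.2 FPKM in the mutants, 52.8 to 55.1 FPKM in the controls) and the hindlimb gene Tbx4 (34.3 to 49.1 and 34.0 to 46.8 FPKM) were both present. In litter 2 the Y-linked gene Eif2s3y was listed at 0 in the mutant and at 23.9 FPKM in the control, so sex composition and genotype cannot be told apart within that litter. Xist, a gene expressed in female cells, was at 36.8, 178 and 68.4 FPKM in the mutants of litters 1, 2 and 3. In the controls it was at 12.1, 34.6 and 73.0 FPKM. By Xist, sex composition may therefore differ between the columns of litter 1 too. Eif2s3y was alike in them, at 22.4 FPKM in the mutant and 21.6 FPKM in the control. Across rows the litter 1 columns correlated with those of other litters at 0.867 to 0.905, while the columns of litters 2 and 3 correlated with each other at 0.933 to 0.968, so each gene is given by litter.

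Lmo1 had the largest difference of the 8 genes. It encodes a LIM-only protein known as an oncogene of T-cell leukaemia. Lmo1 was at 22.2, 25.4 and 32.6 FPKM in the mutants of litters 1, 2 and 3, against 9.85, 13.1 and 10.5 FPKM in the controls. Every mutant column lay above every control column. The ratio of mutant to control was 2.25, 1.95 and 3.12 in litters 1, 2 and 3, and the mean log2 difference on the log2(FPKM + 1) scale was 1.19 (SE 0.19, n = 3 columns per group). SEs throughout are from a limma fit without litter as a block, so they include the spread between litters. With litter as a block the SEs of the 8 genes ran from 0.10 for Ldb2 to 0.17 for Lmo2. The highest ratio was in litter 3, the litter whose mutant kept the most Shox2 transcript. Because these are bulk samples, more cells of a type that makes Lmo1 and more Lmo1 RNA per cell cannot be told apart, and the same holds for each gene below.

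The bases just before the Lmo1 start are shown because homeodomain proteins such as Shox2 and the LIM homeobox factors commonly bind sites with a TAAT core, and Lmo4 is shown beside it as the other LIM-only gene among the 8 with no overlap between genotypes. Both runs are the 250 bases before the RefSeq start on GRCm38.p6, minus strand, read 5′ to 3′, with every TAAT or its reverse complement ATTA in capitals. The Lmo1 window is chr7:109175208-109175457 and the Lmo4 window is chr3:144205256-144205505.
Lmo1: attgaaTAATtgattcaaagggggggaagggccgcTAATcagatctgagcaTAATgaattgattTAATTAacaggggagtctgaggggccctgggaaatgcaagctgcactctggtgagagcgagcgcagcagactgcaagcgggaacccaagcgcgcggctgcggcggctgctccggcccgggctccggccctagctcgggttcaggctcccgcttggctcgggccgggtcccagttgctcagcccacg
Lmo4: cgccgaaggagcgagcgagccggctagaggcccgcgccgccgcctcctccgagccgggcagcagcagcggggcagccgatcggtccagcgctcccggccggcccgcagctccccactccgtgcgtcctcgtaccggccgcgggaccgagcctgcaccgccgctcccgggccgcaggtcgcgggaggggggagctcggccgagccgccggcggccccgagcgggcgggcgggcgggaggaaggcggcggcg
The Lmo1 window shown, that of the upstream of 2 RefSeq starts, held 5 matches to TAAT on either strand, with first bases at -244, -215, -199, -186 and -184 from the start. The pair at -186 and -184 overlap and form the palindrome TAATTA. The window of the other Lmo1 start overlaps this one and holds the same TAATTA. All 3 Lmo4 windows held 0 such matches, and the one shown had a GC content of 82.4%, against 61.2% in the Lmo1 window shown. Of 32851 windows of the same length in the RefSeq table, 54.9% held TAAT and 4.84% held TAATTA on either strand. Windows were found for 6 of the 8 genes. Of these, Lhx9 had 2 TAAT matches, Lmx1b and Lhx2 had 0, and 1 of the 3 Ldb1 windows had 2. TAATTA was found before Lmo1 and before no other of these 6 genes. The windows differ in place, however. Those of Lhx9 and Ldb1, 1 Lhx2 window and the Lmo4 windows not shown lie wholly inside the annotated gene, before internal starts. The Lmx1b window lies inside it in part, while the Lmo1 and Lmo4 windows shown have 0 bases inside. Lmo3, a LIM-only gene outside the 8, also had no overlap between genotypes. Its window held 2 TAAT matches and 0 of TAATTA, and 238 of its 250 bases lie inside the annotated gene. These matches are letters in a window and no measurement of binding.

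Lmo4, a widely expressed LIM-only gene, was at 59.3, 69.2 and 68.1 FPKM in the mutants of litters 1, 2 and 3, against 47.8, 55.5 and 48.0 FPKM in the controls. All mutant columns again lay above all control columns, by a narrower margin than for Lmo1. The ratio was 1.24, 1.25 and 1.42, and the mean log2 difference was 0.37 (SE 0.14).

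Lmo2 encodes a partner of haematopoietic and endothelial transcription factors. Of the LIM-only genes among the 8, Lmo2 was the scarcest and the only one with a lower mean in the mutants. It was at 2.30, 1.44 and 1.20 FPKM in the mutants, against 2.11, 2.25 and 2.18 FPKM in the controls. The groups overlapped, since the litter 1 mutant was above all controls while the litter 2 and 3 mutants were below all of them. The log2 difference was -0.29 (SE 0.19). Markers of endothelium, the cell type in which Lmo2 is best known outside blood, had a summed level of 51.2, 48.7 and 54.8 FPKM over 14 genes in the mutants and 63.4, 74.2 and 52.2 FPKM in the controls. Most of that sum in every column came from Fli1, Erg, Egfl7 and Ramp2. Among the defining markers, Cdh5, the endothelial cadherin, was at 0.498, 0.659 and 0.643 FPKM in the mutants and 0.369, 3.17 and 1.02 FPKM in the controls. No endothelial marker was at 0 in any column. Red cell markers summed to 713, 383 and 230 FPKM over 8 genes in the mutants and 490, 593 and 329 FPKM in the controls. Most of this was Hbb-y, at 567, 303 and 182 FPKM in the mutants and 387, 409 and 267 FPKM in the controls. Gata1 was listed at 0 in the litter 3 control, and no other red cell marker was at 0. Leukocyte markers summed to 10.3, 20.8 and 11.6 FPKM over 8 genes in the mutants and 12.6, 13.5 and 16.0 FPKM in the controls, with 3 markers at 0 in some column and Ptprc at 0.337 FPKM or less in every column. The part of these cells in the Lmo2 values was not tested.

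Lhx9, which with Lhx2 acts in limb bud outgrowth and is also needed for the mouse gonad, had the steadiest mutant level of the 8 genes. It was at 14.6, 14.6 and 14.3 FPKM in the mutants of litters 1, 2 and 3, against 8.28, 10.2 and 8.21 FPKM in the controls. The groups did not overlap, and the mutant columns differed among themselves by 1.02-fold. The ratio was 1.76, 1.44 and 1.74, and the log2 difference was 0.65 (SE 0.14).

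Lhx2, the close relative of Lhx9, was present at much lower levels. It was at 1.74, 3.29 and 3.48 FPKM in the mutants, against 1.22, 2.56 and 2.11 FPKM in the controls. The mutant exceeded the control of its own litter in 3 of 3 litters, with ratios of 1.43, 1.29 and 1.65, but the litter 1 mutant was below the controls of litters 2 and 3, so the groups overlapped. The log2 difference was 0.37 (SE 0.27).

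Lmx1b, the dorsal identity factor, was the most abundant LIM homeobox gene of the set. It was at 28.4, 47.0 and 51.1 FPKM in the mutants of litters 1, 2 and 3, against 29.6, 36.7 and 43.4 FPKM in the controls. The mutant was higher in litters 2 and 3 and lower in litter 1, and the groups overlapped. The log2 difference was 0.17 (SE 0.26).

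Ldb1, the cofactor through which LIM homeobox and LIM-only proteins assemble, was at 66.1, 121 and 100 FPKM in the mutants of litters 1, 2 and 3, against 85.7, 111 and 111 FPKM in the controls. It was lower in the mutant in litters 1 and 3 and higher in litter 2, with a log2 difference of -0.13 (SE 0.25). Ldb2, the related cofactor, was at 34.2, 63.1 and 50.9 FPKM in the mutants and 33.3, 63.4 and 50.1 FPKM in the controls. Its ratio within a litter was 1.03, 0.997 and 1.02, while its level differed 1.85-fold between litters among the mutants and 1.90-fold among the controls. For both cofactors the groups overlapped.

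**Figure D1:**
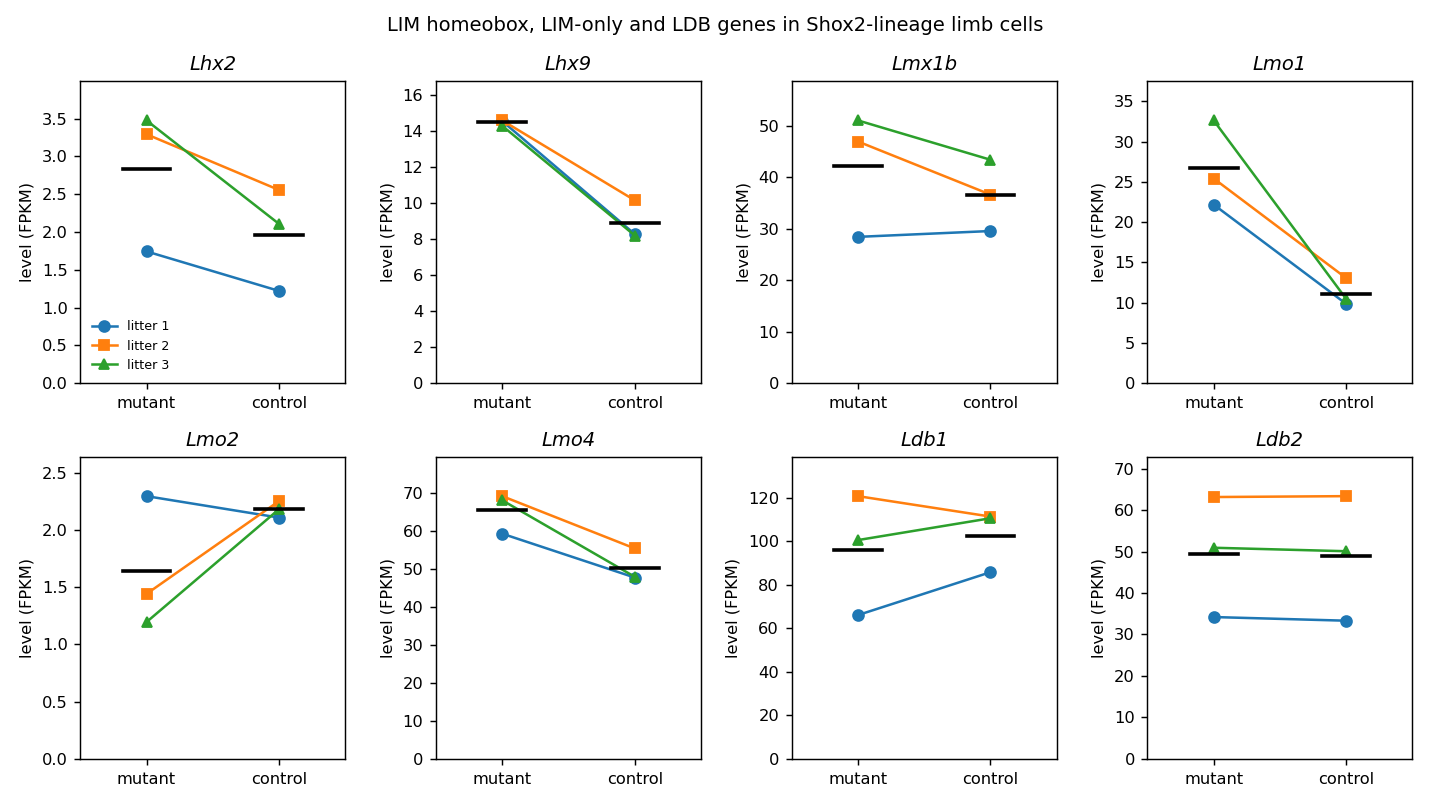
Level in FPKM (vertical axes from 0) of each of the 8 genes in the mutant and control column of each litter, with a line joining the columns of a litter and a black bar at the mean of 3 columns. Mutant and control columns do not overlap for Lhx9, Lmo1 and Lmo4, and the lines for Ldb2 are nearly flat with litter 1 lowest.

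Taking the 8 genes together, all of which passed the filter of 1 FPKM in at least 3 columns, 4 were higher in the mutant in every litter (Lhx2, Lhx9, Lmo1 and Lmo4) and 0 were lower in every litter. Over the 12314 rows tested these shares were 15.7% and 22.3%. The 3 genes with no overlap between groups were all higher in the mutants, where 4.22% of rows lay higher without overlap and 5.03% lower. The median log2 difference was 0.27 over the 8 genes and -0.04 over all rows. Since the genes were proposed with these values known, the counts describe them and support nothing further. Over the whole table limma called 0 rows at an adjusted p under 0.05 (0% of rows), both without a block and with litter as one. Its unadjusted p was under 0.05 for 272 rows higher in the mutants (2.21%) and 167 lower (1.36%), and with the block for 658 higher (5.34%) and 775 lower (6.29%). A second deposited file, which lists genes that the authors took to be direct targets of repression by Shox2, names 4 of the 8, namely Lhx2, Lhx9, Lmx1b and Lmo1, and 7.71% of the rows tested. The sources used here do not say how it was made, and it may rest on these samples.

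By level, the order over all 6 columns was Ldb1 (mean 99.1 FPKM), Lmo4 (58.0), Ldb2 (49.2), Lmx1b (39.4), Lmo1 (18.9), Lhx9 (11.7), Lhx2 (2.40) and Lmo2 (1.91 FPKM). FPKM values are per length, so these levels can be set beside each other. Each gene's range over the 6 columns overlapped that of the next gene in the order, except that Lhx9 (8.21 to 14.6 FPKM) lay wholly above Lhx2 (1.22 to 3.48 FPKM). The order was the same in both genotypes down to Lhx9. Lhx2 ranked above Lmo2 in the mutants, at 2.84 ± 0.952 and 1.64 ± 0.577 FPKM, and below it in the controls, at 1.96 ± 0.679 and 2.18 ± 0.0724 FPKM (SD, n = 3 columns each). These differences between Lhx2 and Lmo2 are close to or within the SDs. The mean of Lmo1 lay closer to that of Lmx1b in the mutants, where Lmo1 was at 26.8 ± 5.35 FPKM and Lmx1b at 42.2 ± 12.1 FPKM, than in the controls, where they were at 11.1 ± 1.70 and 36.6 ± 6.93 FPKM.

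**Figure D2:**
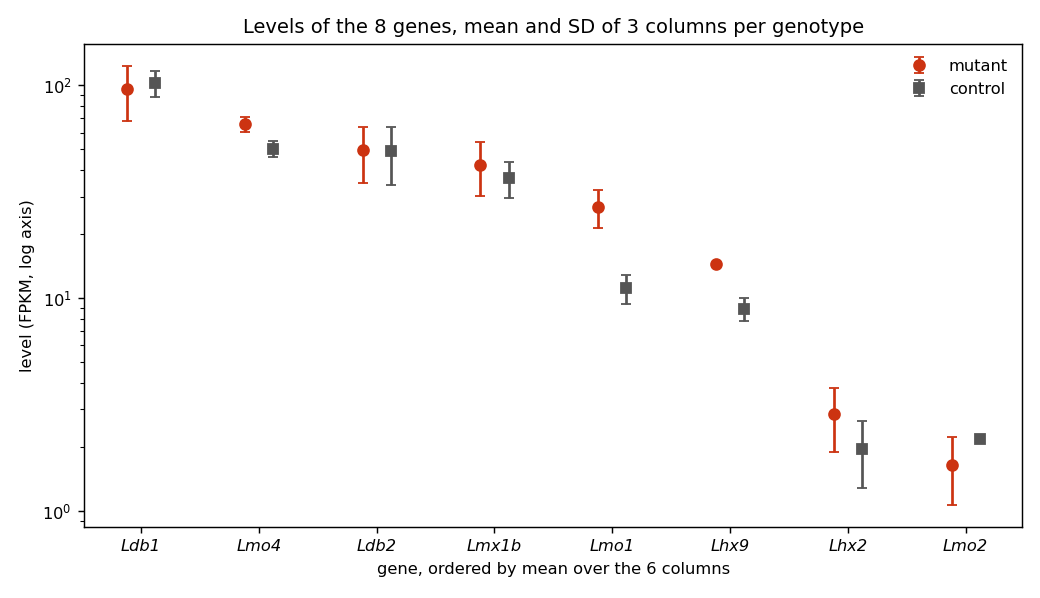
Mean level in FPKM on a log axis, with SD over 3 columns, of the 8 genes in mutants (circles) and controls (squares), ordered from the highest to the lowest mean over 6 columns. Lmo1 is at 26.8 FPKM in the mutants and 11.1 FPKM in the controls, while Ldb2 is at 49.4 and 48.9 FPKM.

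Ratios between genes of 1 column do not depend on how that column was scaled. The sum of Lmo1, Lmo2 and Lmo4 was 83.8, 96.1 and 102 FPKM in the mutants of litters 1, 2 and 3, against 59.8, 70.8 and 60.6 FPKM in the controls. Set against the sum of Ldb1 and Ldb2, this gave a LIM-only to LDB ratio of 0.836, 0.523 and 0.674 in the mutants and 0.502, 0.405 and 0.378 in the controls. The lowest mutant ratio, in litter 2, was above the highest control ratio, in litter 1. LIM homeobox transcripts of the 3 genes relative to LDB transcripts were at 0.446, 0.353 and 0.455 in the mutants and 0.328, 0.283 and 0.335 in the controls, also without overlap. Isl1, a LIM homeobox gene outside the 8, is not in this sum. It was at 3.86 to 8.996 FPKM, above Lhx2, and was lower in the mutant in 3 of 3 litters. The lack of overlap is thus a statement on Lhx2, Lhx9 and Lmx1b only. Within the LIM-only sum, Lmo1 made up 26.5%, 26.5% and 32.0% in the mutants and 16.5%, 18.4% and 17.3% in the controls. The share of Lmo4 was 70.8%, 72.0% and 66.8% in the mutants, against 80.0%, 78.4% and 79.1% in the controls. Lmo4 thus remained the main LIM-only transcript in all columns. Lmo3, a LIM-only gene outside the 8, is not in this sum. It was at 1.03 to 3.40 FPKM and was higher in the mutant in 3 of 3 litters. Lhx9 made up 32.5%, 22.5% and 20.8% of the LIM homeobox sum in the mutants and 21.2%, 20.6% and 15.3% in the controls, higher in 3 of 3 litters with overlap between groups. These ratios are built from the values that the set was chosen with and were not tested. They are transcript ratios and no measure of protein.

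**Figure D3:**
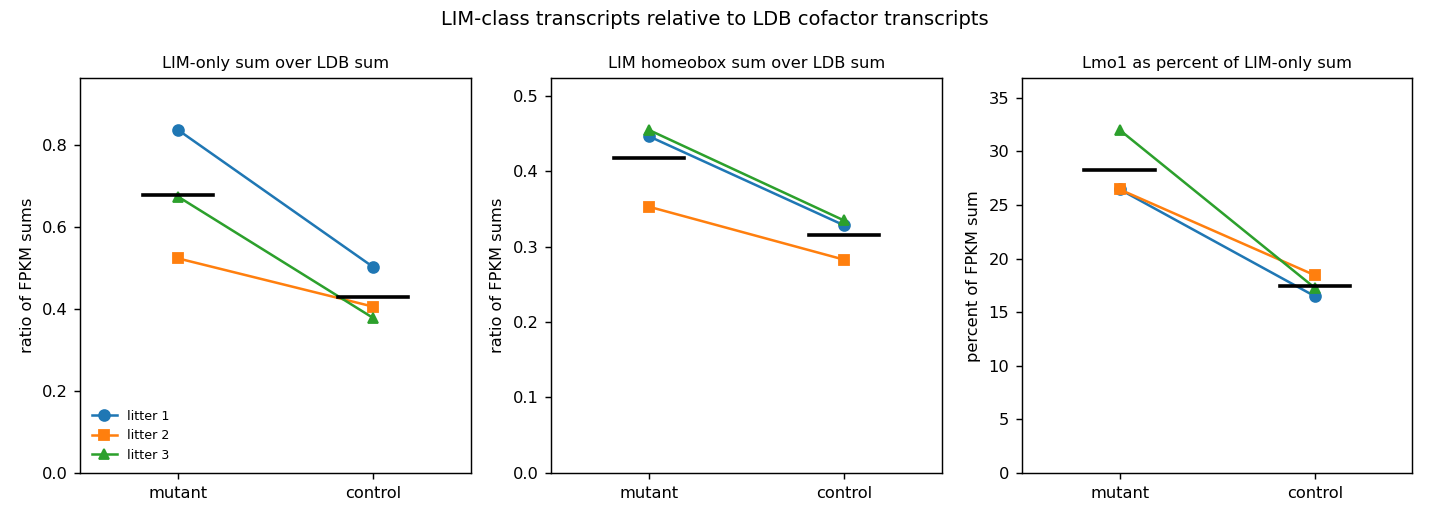
Ratio of the LIM-only sum to the LDB sum, ratio of the LIM homeobox sum to the LDB sum, and Lmo1 as a percent of the LIM-only sum, in the mutant and control column of each litter, with black bars at the mean of 3 columns. In all 3 panels the mutant lies above the control in every litter, and the LIM-only to LDB ratio runs from 0.523 to 0.836 in mutants and from 0.378 to 0.502 in controls.

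Other genes of the family and its complexes, taken from lists that do not contain the 8, were tested in the same limma fit. Of 23 such genes 12 could be tested and 0 passed an adjusted p of 0.05 in either direction, with 2 at an unadjusted p under 0.05. Their median log2 difference was -0.08, with 3 higher and 2 lower in the mutants of every litter, where 15.7% and 22.3% of all rows were. Lmo3, the remaining LIM-only gene, was at 3.40, 2.88 and 3.31 FPKM in the mutants of litters 1, 2 and 3, against 1.03, 1.42 and 2.05 FPKM in the controls. The groups did not overlap, and the log2 difference was 0.77 (SE 0.19, limma adjusted p = 0.859, or 0.189 in the fit blocked by litter). Lmo3 is also in the deposited list. So is Ssbp2, another of these genes, which was lower in the mutant in 2 of 3 litters (log2 difference -0.14, SE 0.19). Without the litter 2 pair the blocked fit called Lmo3 (0.81, limma adjusted p = 0.000197). Without the litter 1 pair or the litter 3 pair the blocked fit called 0 of the 23 genes. Each such fit had 2 columns per group, so its p rests largely on the variance that limma takes from other rows.

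Isl1, a LIM homeobox gene of the posterior hindlimb field, was at 6.88, 3.86 and 3.91 FPKM in the mutants, against 7.93, 5.11 and 8.996 FPKM in the controls. It was lower in the mutant in 3 of 3 litters, but the litter 1 mutant was above the litter 2 control. The log2 difference was -0.51 (SE 0.27, limma adjusted p = 1.00, or 0.384 with the block). Without the litter 2 pair the blocked fit called this gene too (-0.60, limma adjusted p = 0.00479). The limits given for that fit under Lmo3 hold here as well. The other 8 LIM homeobox genes, Lhx1, Lhx3, Lhx4, Lhx5, Lhx6, Lhx8, Isl2 and Lmx1a, were below the filter, at 0 to 1.95 FPKM.

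Among the partners of the complex, the single-stranded-DNA-binding proteins that stabilise LDB were abundant. Ssbp3 was at 145 ± 45.8 FPKM in the mutants and 161 ± 33.8 FPKM in the controls, and Ssbp4 at 45.5 ± 15.0 and 49.2 ± 7.43 FPKM. Ssbp2, of the same family, was at 19.9 ± 0.270 FPKM in the mutants and 22.6 ± 5.92 FPKM in the controls (SD, n = 3 columns each). Rlim, a ubiquitin ligase for LDB, was at 46.8, 19.7 and 18.4 FPKM in the mutants and 39.5, 17.0 and 18.1 FPKM in the controls, so it followed the litter more than the genotype. Gata2, a partner of Lmo2 in blood and endothelium, was at 0.543, 0.762 and 0.942 FPKM in the mutants and 1.14, 2.54 and 1.33 FPKM in the controls. Its log2 difference was -0.58 (SE 0.23, limma adjusted p = 1.00, or 0.368 with the block). Of the 14 endothelial markers, 4 (Kdr, Emcn, Cldn5 and Esam) were lower in the mutant in every litter and 0 were higher in every litter, while 8 were lower and 2 (Egfl7 and Plvap) higher in 2 of 3 litters. Their sum was higher in the litter 3 mutant than in its control, as given above. Most of it in litter 3 was Fli1, Erg, Ramp2 and Egfl7. These were at 15.3, 13.5, 10.3 and 9.16 FPKM in the mutant, against 15.2, 11.7, 7.92 and 8.30 FPKM in the control. Tek and Plvap were also higher in that mutant, and the remaining markers, Pecam1 and Cdh5 among them, were lower. The part of endothelial cells in the Gata2 values was not tested.

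Limb signals and outputs known to lie upstream or downstream of LIM homeobox factors were tested as a further list of 17 genes. Of the 14 that could be tested, 0 passed over all rows with or without the block, while an unadjusted p under 0.05 was reached by 1 gene higher and 3 lower, where 2.21% and 1.36% of all rows did so. With the block it was reached by 2 and 6, where 5.34% and 6.29% of all rows did so. In every litter 2 were higher and 7 lower in the mutants, where 15.7% and 22.3% of all rows were. Grem1, a BMP antagonist of the loop between ridge and mesenchyme, was at 12.8, 15.6 and 19.2 FPKM in the mutants, against 9.997, 8.49 and 12.7 FPKM in the controls. Its log2 difference was 0.56 (SE 0.21, limma adjusted p = 1.00, or 0.196 with the block). Spry4, a feedback inhibitor induced by FGF, was at 7.84, 7.81 and 11.1 FPKM in the mutants, against 15.1, 15.2 and 13.6 FPKM in the controls. Its log2 difference was -0.67 (SE 0.17, limma adjusted p = 0.859, or 0.196 with the block). Etv4, an FGF target, and Ptch1, the hedgehog receptor and target, had log2 differences of -0.81 (SE 0.22) and -0.57 (SE 0.16), lower in 3 of 3 litters, with limma adjusted p of 0.942 and 0.962, or 0.107 and 0.166 with the block. Wnt7a, the ectodermal inducer of Lmx1b, was at 0.809 FPKM or less in every column of these sorted cells, and En1, a ventral ectodermal repressor of Wnt7a, was at 3.15, 5.18 and 5.06 FPKM in the mutants and 3.41, 4.92 and 3.52 FPKM in the controls. Leaving out the litter 2 pair changed these calls, since the blocked fit then called 8 of the 14, Fgf10, Grem1 and Msx1 higher and Etv4, Fgf8, Gli1, Ptch1 and Spry4 lower. That fit called 534 rows, or 4.34% of all rows tested. Without the litter 1 pair or the litter 3 pair the blocked fit called 0 of the 14. Each of these fits had 2 columns per group. The list was chosen with earlier results of these data known, so the 8 of 14 cannot test whether such genes are called more often than others.

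**Figure D4:**
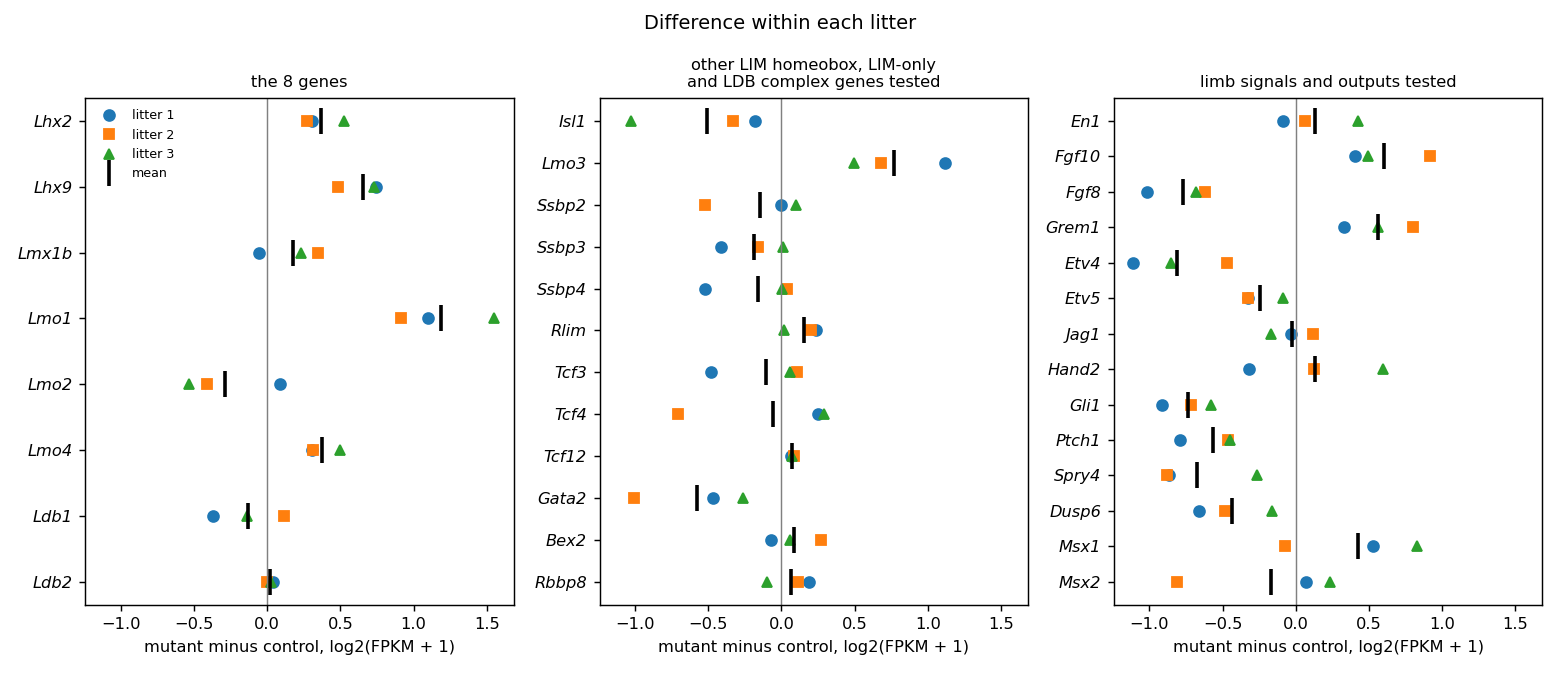
Difference of mutant minus control in log2(FPKM + 1) within each litter (coloured symbols) and its mean (black bar) for the 8 genes, for 12 other LIM and LDB complex genes, and for 14 limb signals and outputs. Lmo1 and Lhx9 lie to the right of 0 in all 3 litters, as does Lmo3, while Etv4, Fgf8, Gli1, Ptch1 and Spry4 lie to the left in all 3.

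For each of the 8 genes the 3 rows with the most similar pattern over the 6 columns were found by Pearson's r in log2(FPKM + 1). The 6 points share 3 litters and the genotype difference, and with 12314 rows some high values arise from any pattern, so these are descriptions. Lmo1 was most like B230118H07Rik, Sall1 and Bves (r = 0.995, 0.994 and 0.986). Sall1, a zinc-finger factor of distal limb, was at 5.70, 6.98 and 8.94 FPKM in the mutants and 2.27, 2.66 and 2.33 FPKM in the controls, so like Lmo1 it was highest in the litter 3 mutant. Lhx9 was most like Crh, Nov and Dlg2 (r = 0.984, 0.983 and 0.975). Lmo4 was most like Pgm2, Id2 and Comtd1 (r = 0.994, 0.992 and 0.987), of which Id2, which encodes a BMP-induced partner that blocks helix-loop-helix proteins, was at 126, 165 and 167 FPKM in the mutants and 96.3, 121 and 100 FPKM in the controls. Lhx2 was most like Sdc2, Ackr3 and Osr2 (r = 0.996, 0.993 and 0.993). Lmo2 was most like Slc26a1, Mfsd7b and Ninl (r = 0.986, 0.972 and 0.971). Lmx1b was most like Atp5e, H1f0 and Mettl9 (r = 0.995, 0.993 and 0.993), Ldb1 was most like Fosb, Atxn7l2 and Sdsl (r = 0.998, 0.997 and 0.996), and Ldb2 was most like Luc7l2, App and Unc93b1 (r = 0.997, 0.996 and 0.993). Rows with r above 0.95 numbered 19 for Lmo1, 19 for Lhx9, 27 for Lmo4, 41 for Lhx2 and 5 for Lmo2. They numbered 203 for Lmx1b, 290 for Ldb1 and 285 for Ldb2.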

How the data were processed

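RNA was sequenced from sorted cells. The submitters' processing notes name TopHat, Cuffdiff and mm9. The sources used here give no version, annotation or filter. The deposited values were taken as FPKM, since per the file headers Cuffdiff made them under geometric normalization, stated once over each litter's columns, and a level compared between litters may therefore combine scalings made apart. Depth is unknown. Low values of a litter's columns were compared for steps of single reads, and of rows under 0.15 FPKM in both columns 8.13%, 6.12% and 44.5% in litters 1, 2 and 3 had a log2 ratio within 0.05 of -1, 0 or 1, which fixes no depth. The other deposited file, a list of symbols without values, was used only for membership by exact symbol.

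Mutant and control columns were compared on log2(FPKM + 1) with limma 3.58.1 (R 4.3.3, prior variance trended on mean level), over the 12314 of 24102 rows at 1 FPKM or more in at least 3 columns, with Benjamini-Hochberg adjustment over all of them and a threshold of 0.05. Fold changes on this scale understate low genes. The whole-limb samples were not analysed here. The fit was tested on simulated data. The members and the gene lists were chosen with earlier results of these data known. All 8 members are named, with the 3 rows most like each and up to 4 genes per other list by the smallest p. Genes beyond these (LIM homeobox genes below the filter, Ssbp4, Rlim, Wnt7a, En1, Gata1, Cdh5, the other endothelial markers, the surface ectoderm markers, Ptprc and those called without a litter) were picked with their values in view. The plan was made for 4 mutant samples, and the table holds 3 mutant columns. Of 133 listed genes 130 matched a row. Litter numbers pair the columns, since the labels say that a number marks a litter, and deviations from group means correlated at 0.873, 0.568 and 0.77 within litters 1, 2 and 3 across rows. Promoter windows came from RefSeq (GRCm38.p6), whose build differs from mm9, and were matched by symbol. Genes with near-identical copies are uncertain where reads could be split.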

Additional observations from a re-analysis of the deposited data

How the results depend on the processing

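Other pseudocounts (0.1 and 0.5), no filter, a mean of 5 FPKM or more, quantile normalisation and centring on column medians left 0 rows called. With the replicate block (litter) limma called 0 rows, 0 of the other LIM and LDB genes and 0 of the limb signals, so the paired fit changed no call. Column weights called 15 rows, and 0 in both lists. Leaving out 1 column, or 1 litter pair with the block, gave 0 to 534 called rows, 0 to 2 LIM and LDB genes and 0 to 8 limb signals. The 534, 2 and 8 were without the litter 2 pair, and 36 rows were called without the litter 3 pair. The single rows called without mutant replicate 3 and without control replicate 3 were Shox2 and Snora16a, and the causes were not tested. Lhx9, Lmo1, Lmo4, Lhx2 and Lmx1b stayed above 0 and Lmo2 below 0 in log2 difference under every alternative that gave a value. Lmo1 ran from 1.00 to 1.33, Lhx9 from 0.61 to 0.74, Lmo4 from 0.31 to 0.48, Lhx2 from 0.17 without control replicate 1 to 0.59 without mutant replicate 1, Lmx1b from 0.02 without mutant replicate 3 to 0.43 without mutant replicate 1, and Lmo2 from -0.47 to -0.16. Ldb1 ran from -0.32 to 0.11, above 0 in 1 of 17 alternatives, and Ldb2 from -0.23 to 0.26, below 0 in 3. With a mean of 5 FPKM or more, Lhx2 and Lmo2 were not tested.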

Other observations

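Lists for the position and tissue in which LIM factors act also held no called gene. Of the distal limb mesenchyme list 9 genes were tested and 0 called, with a median log2 difference of 0.05. Its member Sall1 was higher in the mutants without overlap (1.25, SE 0.18, limma adjusted p = 0.471, or 0.0643 with the block). Column weights called Sall1. Hoxd11 was also higher without overlap (0.44, SE 0.14), and Etv4 was lower without overlap (-0.81, SE 0.22). The proximal list had 7 tested, 0 called and a median of 0.16, Shox2 included. Among small leucine-rich proteoglycans of limb connective tissue 6 were tested and 0 called, with a median of -0.18. Their member Kera, keratocan, was at 92.6, 82.9 and 113 FPKM in the mutants of litters 1, 2 and 3 and at 43.1, 41.9 and 51.1 FPKM in the controls, without overlap (log2 difference 1.06, SE 0.17, limma adjusted p = 0.471, or 0.0643 with the block). The 8 lists of cell type markers had 3 to 9 tested genes each and 0 called. Nerve and glia markers summed to 131, 82.1 and 76.7 FPKM in the mutants and 67.3, 114 and 55.0 FPKM in the controls, and muscle markers to 48.3, 47.4 and 45.3 FPKM in the mutants and 27.2, 73.9 and 33.1 FPKM in the controls. Surface ectoderm markers summed to 17.2, 24.3 and 20.0 FPKM in the mutants and 23.3, 45.0 and 26.9 FPKM in the controls, lower in 3 of 3 litters. The markers did not all share this direction. In litter 1 Krt18, Epcam, Fgf8 and Wnt7a were lower in the mutant, while Krt5, Krt14, Krt8, Cdh1, Trp63 and Sp8 were higher. Chondrocyte markers summed to 580, 991 and 838 FPKM in the mutants and 653, 704 and 754 FPKM in the controls, lower in 1 of 3.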
